A study of Mus musculus with 6 samples.

Results

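A set of 8 genes of the myoepithelium was followed across the mammary cycle: the smooth muscle contractile genes Acta2, Myh11, Cnn1, Mylk and Tagln, the oxytocin receptor gene Oxtr, the basal transcription factor gene Trp63 and the basal cadherin gene Cdh3. They were taken by name, as every probe set annotated with exactly 1 gene symbol from this set. That gave 18 of 34945 such probe sets and 8 of the 18193 genes on the array. Signals were measured in whole mammary glands, 1 female mouse per array and 6 arrays in all, on a mixed 129/FVB/Black Swiss background. The study looked for genes under the control of Brca1, which acts in DNA repair and suppresses tumours. The virgin pair was a Brca1 D11/D11;p53+/- mutant and a Brca1 D+/+;p53+/- control, aged 6 months. The lactating pair had the same genotypes on day 1 of lactation at 2 months, so these 4 mice shared the p53+/- genotype. The pregnant pair, at day 16.5 and 5 months, was a Brca1 co/co/MMTV-Cre mutant and a Brca1 +/co/MMTV-Cre control. Both pregnant mice thus carried Cre under the mouse mammary tumour virus promoter, which is active in mammary epithelium among other tissues. The series' design text gives the germline D11 genotype for all mutants, and the sample labels were followed here. Stage cannot be told apart from age, from the alleles and Cre of the pregnant pair, or from the other date in the array titles of the lactating pair.

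Myoepithelial cells form the outer, basal layer of mammary ducts and alveoli. They carry a smooth muscle contractile apparatus. At suckling the hormone oxytocin binds its receptor on them, calcium rises inside the cell, myosin light chain kinase phosphorylates myosin, and the cells squeeze milk towards the nipple. The transcription factor p63, encoded by Trp63, maintains the basal lineage, and P-cadherin, encoded by Cdh3, joins basal cells to each other. Acta2, Myh11, Cnn1 and Tagln are also made by vascular smooth muscle, so a whole-gland signal sums over several cell types. In such bulk samples fewer cells of a type and less RNA per cell cannot be told apart. In the RefSeq annotation of GRCm38.p6, Myh11, Mylk and Trp63 lie on chromosome 16, Cnn1 and Tagln on chromosome 9, Acta2 on chromosome 19, Oxtr on chromosome 6 and Cdh3 on chromosome 8.

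Many smooth muscle genes are switched by serum response factor and its myocardin-family partners through a promoter element called the CArG box. The box is a pair of C, then 6 bases that are each A or T, then a pair of G. RefSeq promoter windows (GRCm38.p6, 250 bases before to 50 after the annotated start) were matched for 4 of the 8 genes: Acta2, Cnn1, Mylk and Oxtr. The windows of Acta2, of Cnn1, which had the largest pregnant over virgin ratio of the 8, and of Oxtr, the receptor gene, are shown 5′ to 3′ to compare their CArG content. Capitals mark stretches that match the box with 1 mismatch among the central bases.
Acta2, chr19:34255324-34255623, minus strand: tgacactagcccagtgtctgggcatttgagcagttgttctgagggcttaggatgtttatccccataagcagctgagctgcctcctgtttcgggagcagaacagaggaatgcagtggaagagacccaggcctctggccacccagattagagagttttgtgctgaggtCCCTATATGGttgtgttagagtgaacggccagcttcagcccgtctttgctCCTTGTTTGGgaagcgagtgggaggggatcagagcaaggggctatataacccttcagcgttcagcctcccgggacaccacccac
Cnn1, chr9:22099003-22099302, plus strand: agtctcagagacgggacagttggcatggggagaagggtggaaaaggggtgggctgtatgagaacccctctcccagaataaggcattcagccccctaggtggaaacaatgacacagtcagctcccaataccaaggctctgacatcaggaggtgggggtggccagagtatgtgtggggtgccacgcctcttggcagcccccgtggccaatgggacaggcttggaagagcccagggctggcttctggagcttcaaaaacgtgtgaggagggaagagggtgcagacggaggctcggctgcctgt
Oxtr, chr6:112489776-112490075, minus strand: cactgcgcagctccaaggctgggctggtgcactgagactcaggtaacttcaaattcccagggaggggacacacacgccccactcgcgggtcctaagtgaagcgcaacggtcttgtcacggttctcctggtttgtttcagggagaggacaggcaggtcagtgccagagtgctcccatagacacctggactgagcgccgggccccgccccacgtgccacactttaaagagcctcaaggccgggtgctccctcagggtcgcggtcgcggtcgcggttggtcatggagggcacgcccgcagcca
The Acta2 window held 2 such stretches, CCCTATATGG starting 84 bases and CCTTGTTTGG starting 34 bases before the annotated start. Neither an exact match nor one with 1 central mismatch was found, on either strand, in the windows of Cnn1, Oxtr or Mylk, which says only that these letters are not in these windows. An exact CArG box stood in 1.63% of all 32851 promoter windows of the table, a box with 1 central mismatch in 8.50%, and either kind in 9.98%.

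Each array had been scaled to a 2%-trimmed mean of 500 before deposit. Median signals were 120 to 158 on the virgin and pregnant arrays, and 211 and 231 on the arrays of the lactating mutant and its control. Probe sets of Y-linked genes, which should be dark in female mice, had a median signal of 33.6 and a 95th percentile of 260.4, used below as the background level. Degraded RNA gives more signal at the 3′ than at the 5′ end of a transcript. That ratio for beta-actin was 2.03 and 2.74 in the virgin mutant and control and 1.37 to 1.91 on the other arrays, and for Gapdh 1.52 and 3.50 in the virgin pair and 0.73 to 1.20 elsewhere. The ratios were thus highest in the virgin pair, and their part in the virgin comparisons below was not tested.

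Of the contractile genes, 4 were higher in pregnant than in virgin glands, namely Cnn1, Acta2, Mylk and Myh11, while Tagln was not called. Acta2 encodes smooth muscle alpha-actin, the main thin-filament actin of these cells. Its bright probe set read 13663 in the virgin mutant and 11963 in the virgin control, 22813 and 26872 in the pregnant mutant and control, and 36996 and 28388 in the lactating mutant and its control. Both pregnant arrays and both lactating arrays thus lay above both virgin arrays. All ratios below are log2 ratios of signal + 52.1. Acta2 was higher in pregnant than in virgin glands by 0.95 ± 0.22 (SE, 2 arrays per stage; limma adjusted p = 0.0307) and in lactating than in virgin glands by 1.34 ± 0.22 (limma adjusted p = 0.0023). Its difference between lactating and pregnant glands was 0.39 ± 0.22 (limma adjusted p = 0.216). The pregnant over virgin call ended without the virgin mutant (limma adjusted p = 0.0985), the virgin control (0.209) or the pregnant control (0.193), and with no filter on dim genes (0.0838). The name of this probe set marks it as one whose probes match more than 1 transcript, and the part of other actins in it was not tested. A pair of dim Acta2 probe sets without that mark lay at or near background throughout, and no ratio is given for them.

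Cnn1 encodes calponin 1, a thin-filament protein that restrains actomyosin. It read 450.4 and 422 in the virgin mutant and control, 2020.1 and 2112 in the pregnant mutant and control, and 2264 and 850.1 in the lactating mutant and its control. The lactating pair was spread widely, with its mutant near the pregnant arrays and its control between the pregnant and virgin ones. Cnn1 was higher in pregnant than in virgin glands by 2.12 ± 0.34 (limma adjusted p = 0.0092) and in lactating than in virgin glands by 1.57 ± 0.34 (limma adjusted p = 0.0070). Between lactating and pregnant glands it differed by -0.55 ± 0.34 (limma adjusted p = 0.247). That value became 0.12 without the lactating control and -1.23 without the lactating mutant (limma adjusted p = 0.0089). The pregnant over virgin call ended without the pregnant control (1.73, limma adjusted p = 0.0715), and the lactating over virgin call without the virgin mutant (1.28, limma adjusted p = 0.0517).

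Myh11, the smooth muscle myosin heavy chain, read 1934 and 1632 in the virgin mutant and control, 3101 and 2964 in the pregnant mutant and control and 2066 and 2102 in the lactating mutant and its control. Its pregnant arrays were the highest, and its lactating arrays lay just above its virgin ones. It was higher in pregnant than in virgin glands by 0.75 ± 0.19 (limma adjusted p = 0.0360). Neither its lactating over pregnant ratio of -0.53 ± 0.19 (limma adjusted p = 0.0641) nor its lactating over virgin ratio of 0.22 ± 0.19 (limma adjusted p = 0.338) passed. The call ended without the virgin mutant (limma adjusted p = 0.105), the virgin control (0.287), the pregnant mutant (0.164) or the pregnant control (0.247). It also ended with its probe sets averaged (0.41, limma adjusted p = 0.277) and with no variance trend (0.0614). A second Myh11 probe set stayed below background on all 6 arrays.

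Tagln encodes transgelin, an actin cross-linker abundant in smooth muscle. It read 4191 and 3599 in the virgin mutant and control, 3956 and 4903 in the pregnant mutant and control and 3813 and 2306 in the lactating mutant and its control. The virgin arrays overlapped those of both other stages. None of its stage ratios passed, with 0.18 ± 0.26 for pregnant over virgin, -0.56 ± 0.26 for lactating over pregnant and -0.38 ± 0.26 for lactating over virgin glands (limma adjusted p = 0.679, 0.131 and 0.243). Without the lactating mutant, Tagln was called lower in lactating than in pregnant glands (-0.94, limma adjusted p = 0.0271) and than in virgin glands (-0.76, limma adjusted p = 0.0381).

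Mylk encodes myosin light chain kinase, the enzyme that starts smooth muscle contraction. Its brightest probe set, 1425506_at, read 2942 and 2529 in the virgin mutant and control, 4665 and 5312 in the pregnant mutant and control and 5156 and 4033 in the lactating mutant and its control. Every pregnant and lactating array lay above both virgin arrays. By this probe set Mylk was higher in pregnant than in virgin glands by 0.86 ± 0.20 (limma adjusted p = 0.0326) and in lactating than in virgin glands by 0.73 ± 0.20 (limma adjusted p = 0.0194). It was not called between lactating and pregnant glands (-0.13 ± 0.20, limma adjusted p = 0.666). The pregnant over virgin call ended without the virgin mutant (limma adjusted p = 0.109), the virgin control (0.232), the pregnant mutant (0.0584) or the pregnant control (0.301), and with no variance trend (0.0568). The lactating over virgin call ended without the virgin mutant (limma adjusted p = 0.0694), the virgin control (0.129) or the lactating mutant (0.0916).

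The 3 Mylk probe sets, whose annotation gives the same source sequence, differed in lactation. Probe set 1425505_at read 2571 and 1875 in the virgin mutant and control, 5142 and 4909.9 in the pregnant mutant and control and 1329 and 1459 in the lactating mutant and its control. Its lactating arrays were its lowest. Probe set 1425504_at read 141 and 129.8 in the virgin mutant and control, 336 and 306 in the pregnant mutant and control and 537 and 427 in the lactating mutant and its control. Its lactating arrays were its highest, and both its virgin arrays were below background. Fitted over 19481 probe sets, 1425505_at was lower in lactating than in pregnant glands by a log2 ratio of -1.81 ± 0.21 (limma adjusted p = 0.0023) and than in virgin glands by -0.64 ± 0.21 (limma adjusted p = 0.0373). In the same fit 1425506_at was higher in lactating than in virgin glands by 0.73 ± 0.21 (limma adjusted p = 0.0198), and 1425504_at by at least 1.70-fold (limma adjusted p = 0.0021; mean log2 of 9.05 in lactating and 7.55 in virgin glands). In pregnant against virgin glands 1425505_at was higher by 1.17 ± 0.21 and 1425506_at by 0.86 ± 0.21 (limma adjusted p = 0.0121 and 0.0318), and 1425504_at by at least 1.19-fold (limma adjusted p = 0.0370; mean log2 of 8.54 in pregnant glands). The direction of Mylk in lactating against virgin glands thus depends on the probe set, and which transcripts each one detects was not tested.

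**Figure D1:**
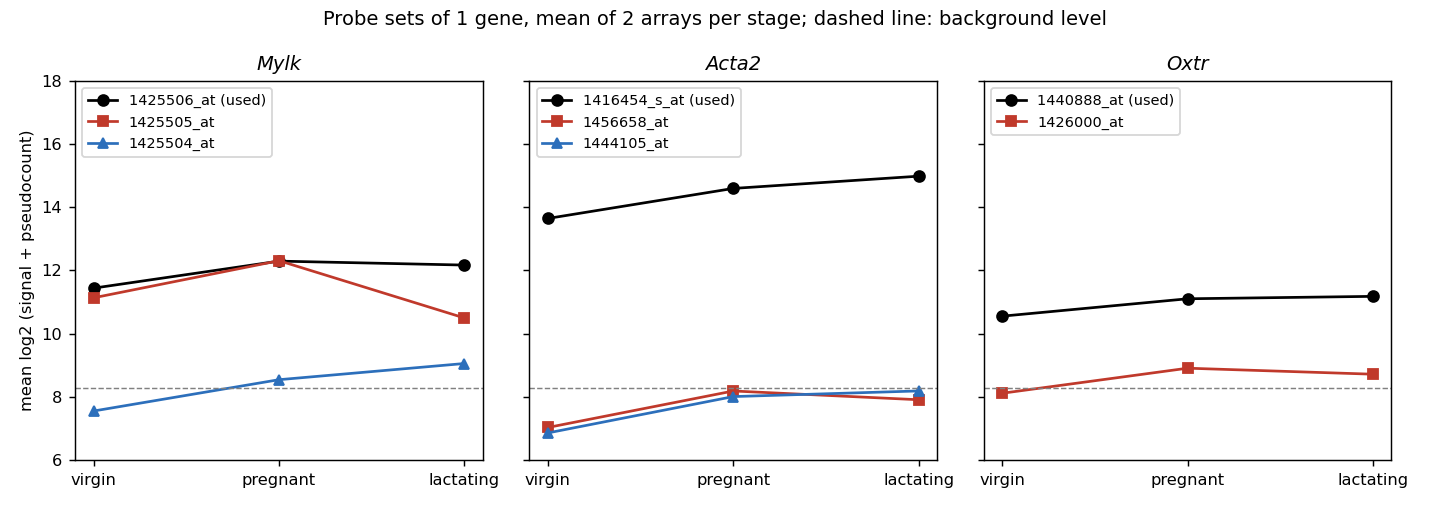
Mean log2(signal + pseudocount) of each probe set of Mylk, Acta2 and Oxtr (vertical axis, log2 units) by stage, 2 arrays per stage; the dashed line is the background level and "used" marks the probe set that stands for the gene. From pregnancy to lactation Mylk 1425505_at drops while 1425504_at, below the line in virgin glands at 7.55, reaches 9.05, and the dim Acta2 probe sets stay under the line.

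Oxtr encodes the receptor through which oxytocin acts on myoepithelium. It read 1448 and 1452 in the virgin mutant and control, 1907 and 2419 in the pregnant mutant and control and 2613 and 1968 in the lactating mutant and its control. The pregnant and lactating arrays overlapped each other and lay above both virgin arrays. Oxtr was higher in lactating than in virgin glands by 0.63 ± 0.22 (limma adjusted p = 0.0480). This call ended in 10 of 17 alternative settings, among them leaving out the virgin mutant (limma adjusted p = 0.174), the virgin control (0.169), the pregnant mutant (0.0536), the pregnant control (0.0533) or the lactating mutant (0.269). Neither its pregnant over virgin ratio of 0.55 ± 0.22 (limma adjusted p = 0.141) nor its lactating over pregnant ratio of 0.08 ± 0.22 (limma adjusted p = 0.817) passed. The second Oxtr probe set read 209.9 and 239.8 in the virgin mutant and control, 399 and 458 in the pregnant mutant and control and 342 and 396 in the lactating mutant and its control. Both virgin values were below background, so its lactating over virgin difference is a bound of at least 1.34-fold, and it was not called (limma adjusted p = 0.0661 over probe sets, where the first had 0.0514; mean log2 of 8.71 in lactating and 8.11 in virgin glands).

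Trp63 was lower, not higher, in lactation. Its bright probe set read 1161 and 829 in the virgin mutant and control, 814 and 478 in the pregnant mutant and control and 373 and 417 in the lactating mutant and its control. Both lactating arrays lay below every other array. Trp63 was lower in lactating than in virgin glands by a log2 ratio of -1.21 ± 0.26 (limma adjusted p = 0.0062). Its pregnant over virgin ratio of -0.61 ± 0.26 (limma adjusted p = 0.151) and its lactating over pregnant ratio of -0.60 ± 0.26 (limma adjusted p = 0.108) did not pass. The lactating over pregnant difference was called without the lactating control (-0.97, limma adjusted p = 0.0347). The other 3 Trp63 probe sets stayed below background on all arrays, and with all 4 averaged the lactating over virgin ratio was -0.26 (limma adjusted p = 0.485).

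Cdh3 was above background only on the lactating arrays, where its brighter probe set read 321 in the mutant and 410.4 in the control. Its second probe set stayed below background on all 6 arrays. The brighter one read 47.9 and 105 in the virgin mutant and control and 190.3 and 122 in the pregnant mutant and control, so no ratio between those stages is given. Against the background level, Cdh3 was at least 1.33-fold higher in lactating than in virgin glands (limma adjusted p = 0.0063; mean log2 of 8.70 in lactating and 6.97 in virgin glands). The same bound holds against pregnant glands, where the difference was not called (limma adjusted p = 0.0695; mean log2 of 7.68 in pregnant glands). Without the virgin mutant the call against virgin glands ended (limma adjusted p = 0.0565). Cdh3 passed the filter on dim genes, a mean log2 of 7.715 over all arrays, with 7.78 and through its lactating arrays alone, so a difference in their favour was needed for it to be tested at all. The highest Y-linked signal was 483.5, above both lactating Cdh3 values.

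**Figure D2:**
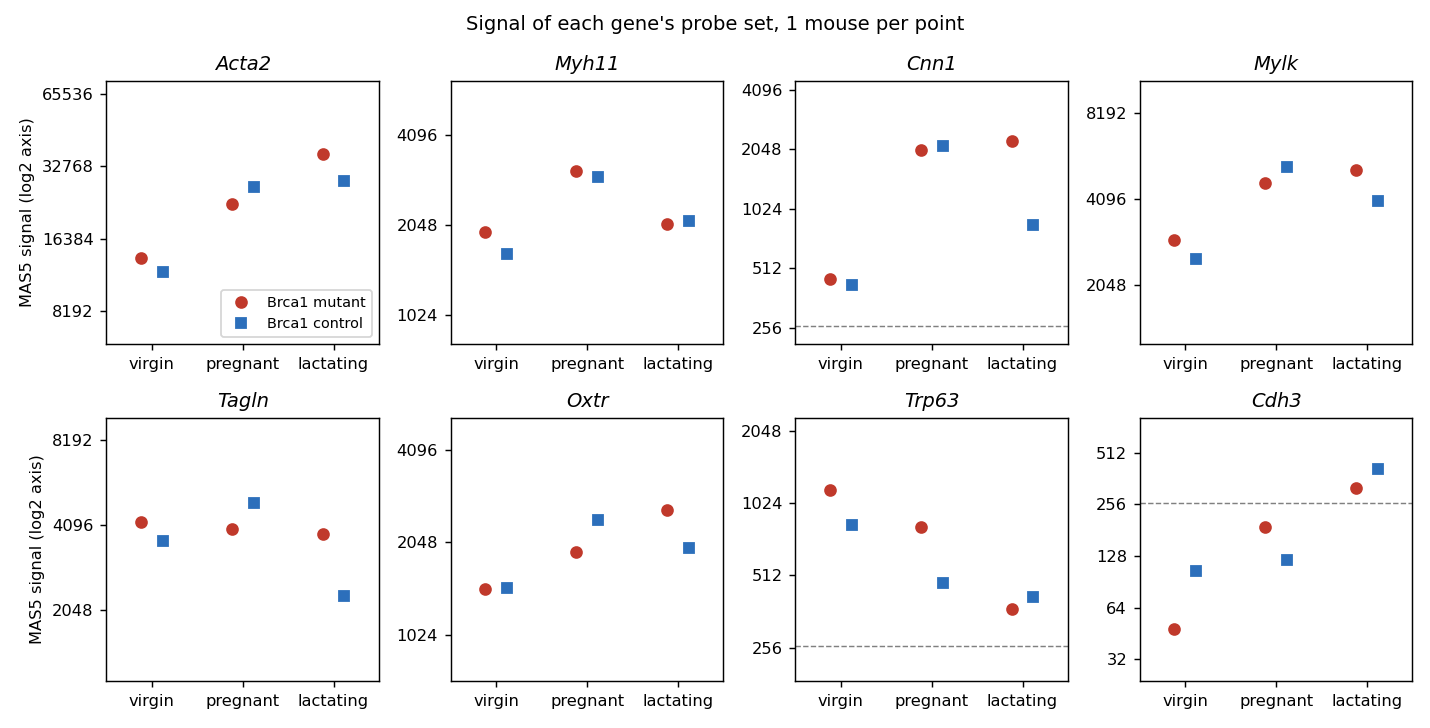
MAS5 signal (vertical axis, log2 axis) of the probe set used for each of the 8 genes, by stage, with 1 mouse per point, Brca1 mutants as red circles left of controls as blue squares; the dashed line is the background level of 260.4 where it falls in the panel. Acta2, Cnn1, Mylk and Myh11 are higher on both pregnant arrays than on both virgin arrays, Trp63 is lowest on the lactating arrays, and Cdh3 passes the background level only there.

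Counted together, 4 of the 8 genes were called higher and 0 lower in pregnant than in virgin glands, where limma called 6.45% of 11495 tested genes higher and 8.26% lower. Their median ratio was 0.73, or 0.75 over the 7 without Cdh3, against -0.06 over all tested genes. In lactating against pregnant glands limma called 0 of the 8 (3 had an unadjusted p under 0.05), where 14.9% of all genes were higher and 16.8% lower. The medians were -0.33 for the 8 and -0.04 for all genes. In lactating against virgin glands 5 were higher and 1 lower, where 23.7% of all genes were higher and 28.3% lower. Among the 5 was Cdh3, which passed the filter on dim genes through its lactating arrays alone. The medians there were 0.68 for the 8 (0.52 with Cdh3 at its bound) and -0.10 for all genes. The comparisons of pregnant and of lactating glands with virgin glands share the virgin arrays. Of the 4 calls in pregnant glands, 1 was left without the virgin mutant, 1 without the virgin control, 2 without the pregnant mutant and 0 without the pregnant control. Of the 6 in lactating against virgin glands, 2 were left without the virgin mutant.

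The scaling of the arrays bears on these counts, since the lactating arrays had higher medians. With each array centred on its own median, the median ratio of all genes was -0.24 for pregnant over virgin, -0.45 for lactating over pregnant and -0.69 for lactating over virgin glands. The share of called genes that were higher was then 26.4%, 16.6% and 18.4% in these comparisons, against 43.8%, 47.0% and 45.5% at the deposited scaling. Under that centring Cnn1 alone of the 8 was called higher in pregnant than in virgin glands (1.94, limma adjusted p = 0.0113), while Acta2 had 0.77 (limma adjusted p = 0.0884). In lactating against pregnant glands Myh11 (-0.94), Tagln (-0.97) and Trp63 (-1.01) were called lower (limma adjusted p = 0.0115, 0.0323 and 0.0136). In lactating against virgin glands Acta2 (0.75), Cnn1 (0.98) and Cdh3 were called higher (limma adjusted p = 0.0423, 0.0476 and 0.0231), and Tagln (-0.97) and Trp63 (-1.80) lower (limma adjusted p = 0.0212 and 0.00044). Mylk (0.14, limma adjusted p = 0.644) and Oxtr (0.04, limma adjusted p = 0.910) were not called there. Relative to the median of all genes, which by construction gives the same value under both scalings, the lactating over virgin ratio was 1.44 for Acta2, 0.83 for Mylk, 0.73 for Oxtr and -1.11 for Trp63.

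**Figure D3:**
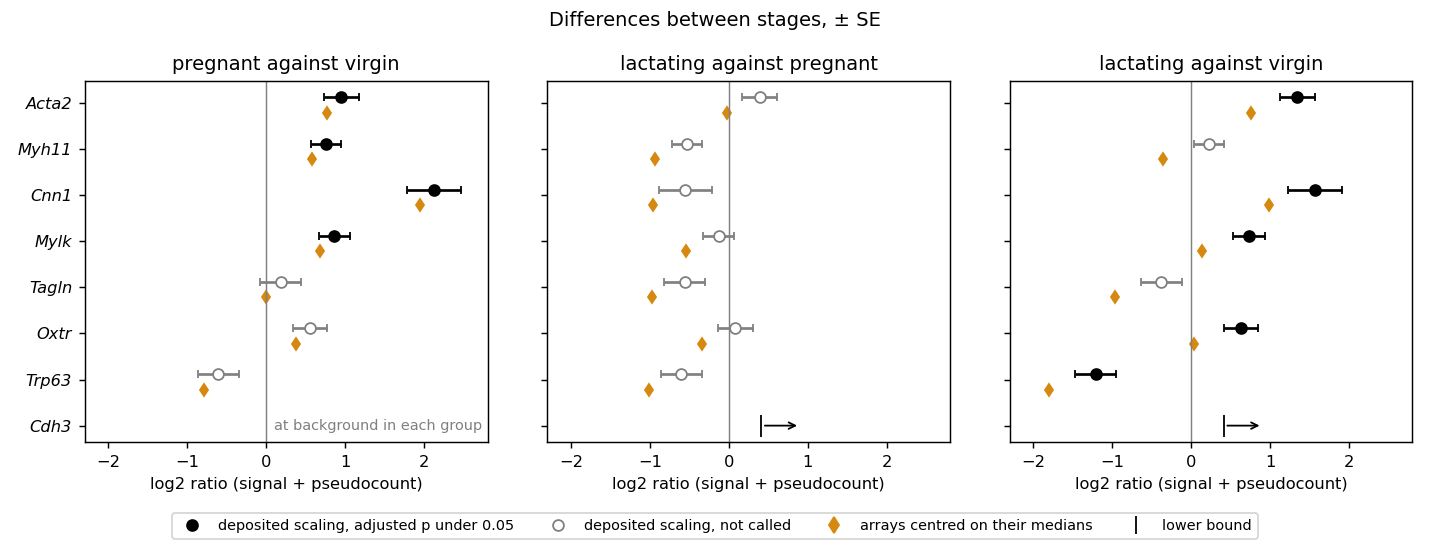
Log2 ratio of signal + pseudocount (horizontal axis) of each gene in 3 stage comparisons, with the fit's SE (n = 2 arrays per stage); black circles passed, open circles did not, orange diamonds show the ratio after median centring, and the bar with an arrow is the lower bound for Cdh3. Diamonds sit left of the circles, and the lactating over virgin ratios of Oxtr (0.63) and Mylk (0.73) become 0.04 and 0.14.

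Basal keratins gave a second yardstick within the same arrays. Krt5, a keratin of basal cells, read 1104 and 827 in the virgin mutant and control, 886 and 749 in the pregnant mutant and control and 2691 and 1206 in the lactating mutant and its control. It was higher in lactating than in pregnant glands by 1.10 ± 0.25 (limma adjusted p = 0.0177). Krt14, its partner keratin, read 835 and 776 in the virgin mutant and control, 553 and 1629 in the pregnant mutant and control and 1501 and 748 in the lactating mutant and its control, and was not called between stages. Relative to the mean log2 value of both keratins in each array, the pregnant minus virgin difference was 2.11 for Cnn1, 0.94 for Acta2, 0.85 for Mylk and 0.74 for Myh11, as a description with no test. With single arrays left out, a check chosen after seeing the data, these ran from 1.83 to 2.39, 0.75 to 1.14, 0.63 to 1.07 and 0.40 to 1.09, lowest without the pregnant mutant and highest without the pregnant control. The lactating minus pregnant difference was -1.15 for Myh11, -1.17 for Cnn1, -1.18 for Tagln and -1.22 for Trp63, and with single arrays left out it ran from -1.68 to -0.62, -1.45 to -0.89, -1.35 to -1.02 and -1.89 to -0.56. For Acta2, Oxtr and Mylk it was -0.23, -0.55 and -0.75. The keratin mean itself was higher in lactating than in pregnant glands by 0.62 and than in virgin glands by 0.63, which lowers these differences by as much. Not set against the keratins, the lactating over pregnant ratios of Myh11, Cnn1, Tagln and Trp63 were -0.53, -0.55, -0.56 and -0.60, none called. The keratin mean was 11.01 in the lactating mutant against 9.97 in the lactating control. Without the lactating mutant the lactating minus pregnant values relative to the keratins were 0.10, -0.22 and -0.40 for Acta2, Oxtr and Mylk, and -0.62 for Myh11. The lactating minus virgin difference of Trp63 was -1.84 (-2.43 to -1.25), while that of Oxtr was -0.32 without the lactating control and 0.32 without the lactating mutant.

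Between Brca1 mutants and controls limma called none of the 8 genes (0 had an unadjusted p under 0.05) and none of the 11495 tested genes (0%; 540 had an unadjusted p under 0.05). The 3 pairs pool unlike contrasts, since the pregnant pair was co/co/MMTV-Cre against +/co/MMTV-Cre and the other pairs were D11/D11 against D+/+ on p53+/-. With the stage as a block and n = 3 pairs, the mutant over control ratios were 0.11 ± 0.18 for Acta2, 0.09 ± 0.15 for Myh11, 0.46 ± 0.28 for Cnn1, 0.13 ± 0.17 for Mylk and 0.21 ± 0.21 for Tagln (SE). Oxtr had 0.02 ± 0.18 and Trp63 0.34 ± 0.21, and over the 8 genes the limma adjusted p ran from 0.938 to 0.988. Within the virgin pair the ratios of the 5 contractile genes were 0.08 to 0.24. In the pregnant pair they ran from -0.31 for Tagln to 0.06 for Myh11, and in the lactating pair from -0.02 for Myh11 to 1.36 for Cnn1. Acta2, Mylk and Tagln thus had positive ratios in the virgin pair (0.19, 0.21 and 0.22), negative ones in the pregnant pair (-0.24, -0.19 and -0.31) and positive ones in the lactating pair (0.38, 0.35 and 0.71). Over the virgin, pregnant and lactating pairs Oxtr had 0.00, -0.34 and 0.40, and Trp63 had 0.46, 0.71 and -0.14.

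Cnn1 in the lactating pair was the only value past 2-fold among these genes, in a pair where 6.27% of all tested genes were, against 2.62% in the virgin and 1.92% in the pregnant pair. With 1 mouse per genotype and stage, these within-pair ratios have no replicate check, and whether the pairs differ was not tested. Both basal keratins were also brighter in the lactating mutant (Krt5 2691, Krt14 1501) than in the lactating control (Krt5 1206, Krt14 748). In the pregnant pair Krt14 was dimmer in the mutant (553) than in the control (1629). The part of the basal cell share in these ratios was not tested.

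**Figure D4:**
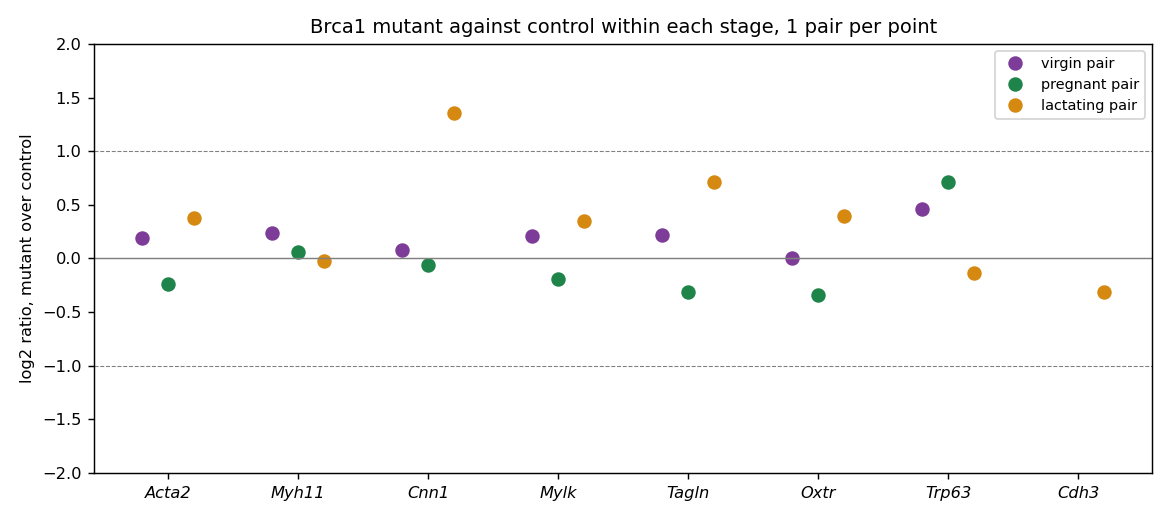
Log2 ratio of Brca1 mutant over control (vertical axis) for each gene in the virgin, pregnant and lactating pair, 1 pair per point, with dashed lines at 2-fold; Cdh3 is shown only where it was above background. Cnn1 in the lactating pair, at 1.36, is the only point past a dashed line, and Acta2, Mylk and Tagln lie below 0 in the pregnant pair and above 0 in the other pairs.

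Other genes of the contractile apparatus were called in both directions. Of 26 tested genes of this list, 6 were higher (23.1%, against 6.45% of all genes) and 2 lower (7.69% against 8.26%) in pregnant than in virgin glands, with a median ratio of 0.10. Actg2, the enteric smooth muscle actin, was higher in pregnant glands by 1.95 ± 0.31 (limma adjusted p = 0.0087). The actin-binding Synpo2 was higher by 1.66 ± 0.27 and the tropomyosin Tpm1 by 1.61 ± 0.32 (limma adjusted p = 0.0096 and 0.0183), while the non-muscle myosin Myh9 was lower, at -1.54 ± 0.28 (limma adjusted p = 0.0140). Tpm1 read 2916 and 5877 in the virgin mutant and control, 14970 and 10819.6 in the pregnant mutant and control and 2753 and 3177 in the lactating mutant and its control. In lactating against pregnant glands 3 genes of the list were higher and 6 lower, which is 11.5% and 23.1% of it, against 14.9% and 16.8% of all genes. Tpm1 (-2.09 ± 0.32, limma adjusted p = 0.0053) and Pdlim3 (-1.24 ± 0.22) were among the lower ones, and the integrin subunit Itga8 (1.50 ± 0.25) and the adhesion protein Zyx (1.11 ± 0.20) among the higher. Against virgin glands, lactating glands had 7 higher, among them Itga8 (1.63 ± 0.25) and Zyx (1.18 ± 0.20), and 5 lower, with the non-muscle myosin Myh10 at -2.24 ± 0.25. The fibronectin receptor subunit Itga5 was below background in virgin glands and at least 1.88-fold higher in lactating ones (limma adjusted p = 0.00097; mean log2 of 9.20 in lactating and 7.03 in virgin glands). The pregnant and virgin arrays of Itga5 alone averaged under the filter on dim genes, so it was tested only through its lactating arrays. With Itga5 among the higher, 26.9% of the list higher and 19.2% lower stand against 23.7% and 28.3% of all genes.

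The regulators of myosin light chain phosphorylation act with or against Mylk. Of 15 tested, 1 was higher and 1 lower in pregnant than in virgin glands (6.67% each, against 6.45% and 8.26% of all genes): the myosin-directed kinase Dapk3 at 1.18 ± 0.24 (limma adjusted p = 0.0198) and the guanylate cyclase subunit Gucy1a1 at -1.35 ± 0.26 (limma adjusted p = 0.0166). In lactating against pregnant glands 0 were higher and 4 lower (26.7%, against 16.8% of all genes). These were the small GTPase Rhoa (-1.03 ± 0.18), the myosin phosphatase subunit Ppp1r12a (-0.67 ± 0.19), Gucy1a1 and the phosphodiesterase Pde5a. Both Gucy1a1 and Pde5a were below background in lactating glands, where they were at least 1.32-fold and 1.11-fold lower than in pregnant ones (limma adjusted p = 0.0489 and 0.0105; mean log2 of 7.88 in lactating and 8.69 in pregnant glands for Gucy1a1, and 7.01 in lactating and 8.44 in pregnant glands for Pde5a). Against virgin glands, lactating glands had 4 higher and 8 lower, with a median of -0.67 against -0.10 over all genes; 26.7% and 53.3% of the list stand against 23.7% and 28.3% of all genes. Ppp1r12a (-1.20 ± 0.19) was among the lower ones. So were Gucy1a1, at least 3.38-fold lower, and Pde5a, at least 1.29-fold lower (limma adjusted p = 0.00067 and 0.0025; mean log2 in virgin glands of 10.04 and 8.65).

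Of the 8 tested smooth muscle transcription factors, 0 were higher and 1 lower (12.5%, against 8.26% of all genes) in pregnant than in virgin glands, namely Klf4, known to repress smooth muscle genes, at -1.43 ± 0.33 (limma adjusted p = 0.0282). Srf, which binds the CArG box, read 582 and 673 in the virgin mutant and control, 572 and 516 in the pregnant mutant and control and 946 and 709 in the lactating mutant and its control. It was called in none of the stage comparisons, and it was picked out here after its values were seen. Foxf1 was the 1 gene called higher and Nfib (-0.69 ± 0.21) the 1 called lower in lactating than in pregnant glands, 12.5% of the list each against 14.9% and 16.8% of all genes. The Srf cofactor gene Mrtfa (1.00 ± 0.31, limma adjusted p = 0.0293) and Foxf1 were higher and Klf4 (-1.50 ± 0.33) lower in lactating than in virgin glands. Foxf1 was below background outside lactation, and at least 1.47-fold higher in lactating than in pregnant or in virgin glands (limma adjusted p = 0.0192 and 0.0187; mean log2 of 8.85 in lactating, 7.51 in pregnant and 7.71 in virgin glands). Its pregnant and virgin arrays alone averaged under the filter on dim genes, so Foxf1 was tested only through its lactating arrays. Against virgin glands 25% of the list, Foxf1 included, was higher and 12.5% lower, where 23.7% and 28.3% of all genes were.

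In the oxytocin receptor signalling list, the calcium channel gene Orai1 differed between all stages. It read 386 and 214 in the virgin mutant and control, 1581 and 1548 in the pregnant mutant and control and 7673 and 10395.7 in the lactating mutant and its control. The stages did not overlap. The ratios were 2.24 ± 0.28 for pregnant over virgin (limma adjusted p = 0.0041), 2.47 ± 0.28 for lactating over pregnant (limma adjusted p = 0.0025) and 4.72 ± 0.28 for lactating over virgin glands. Oxt, the gene of oxytocin itself, read 419 and 419 in the virgin mutant and control, 395 and 556 in the pregnant mutant and control and 3036 and 2914 in the lactating mutant and its control. It was higher in lactating than in pregnant glands by 2.54 ± 0.22 (limma adjusted p = 0.0011). Oxytocin is made mainly by hypothalamic neurons, and which cells gave this signal was not tested.

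Among the other genes of this list, Rgs5, a regulator of G-protein signalling that also marks pericytes, was lower in pregnant than in virgin glands at -1.13 ± 0.19 and in lactating than in pregnant glands at -1.23 ± 0.19 (limma adjusted p = 0.0109 and 0.0055). Its relative Rgs2 was lower in lactating than in pregnant glands at -1.83 ± 0.33 (limma adjusted p = 0.0080). The phospholipase Plcb1 (-1.60 ± 0.28) and the receptor-desensitising arrestin Arrb2 (-1.27 ± 0.26) were lower in pregnant than in virgin glands. Of the 23 tested genes of the list, 2 were higher (8.70%, against 6.45% of all genes) and 4 lower (17.4% against 8.26%) in pregnant against virgin glands. Lactating glands had 3 higher and 5 lower than pregnant glands, or 13% and 21.7% against 14.9% and 16.8% of all genes. They had 5 higher and 9 lower than virgin glands, or 21.7% and 39.1% against 23.7% and 28.3%. Kcnmb1 was among the higher genes in both lactating comparisons, and Kcnma1 in that against virgin glands. Both were below background outside lactation. They were at least 1.69-fold and 1.47-fold higher in lactating than in virgin glands (limma adjusted p = 0.0013 and 0.0065). Their pregnant and virgin arrays alone averaged under the filter on dim genes, so both were tested only through their lactating arrays.

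Of 32 tested genes of the basal epithelial and p63 list, 3 were higher (9.38%, against 6.45% of all genes) and 5 lower (15.6% against 8.26%) in pregnant than in virgin glands, with a median of -0.24. Lactating glands had 3 higher and 7 lower than pregnant glands (9.38% and 21.9%, against 14.9% and 16.8%; median -0.05). They had 7 higher and 11 lower than virgin glands (21.9% and 34.4%, against 23.7% and 28.3%; median -0.30), which is near the share of all genes. The basement membrane receptor subunit Itga6 (1.30 ± 0.19, limma adjusted p = 0.0062) and the laminin subunit Lamb3 (1.49 ± 0.31, limma adjusted p = 0.0208) were higher in pregnant than in virgin glands. The intermediate filament gene Vim (-1.31 ± 0.21) and the peptidase gene Mme (-1.34 ± 0.29) were lower there. Vim (-3.17 ± 0.21), Mme (-3.00 ± 0.29) and Egfr (-1.73 ± 0.19) were lower in lactating than in virgin glands. The protein C receptor gene Procr was below background in lactating glands and at least 3.23-fold lower there than in virgin ones (limma adjusted p = 0.00047; mean log2 of 7.14 in lactating and 9.98 in virgin glands). Vim is also made by stromal cells, whose fibroblast markers were lower in lactation too. The part of stromal cells in the ratios of Vim, Mme, Egfr and Procr was not tested.

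Among 11 tested cadherins, catenins and partners, 1 was higher and 1 lower in pregnant than in virgin glands (9.09% each, against 6.45% and 8.26% of all genes), the adhesion gene Nectin1, for which no fold is given as it lay at or near background in both stages (limma adjusted p = 0.0212; mean log2 of 8.28 in pregnant and 6.65 in virgin glands), and the endothelial cadherin Cdh5 (-1.56 ± 0.22). In lactating against pregnant glands 4 were higher and 1 lower (36.4% and 9.09%, against 14.9% and 16.8% of all genes), with plakoglobin, Jup, at 2.07 ± 0.19 among the higher. Cdh11, a mesenchymal cadherin, was the lower one, by at least 3.07-fold (limma adjusted p = 0.0046; mean log2 of 8.07 in lactating and 9.91 in pregnant glands). Against virgin glands, lactating glands had 4 higher and 4 lower (36.4% each, against 23.7% and 28.3% of all genes). Jup (2.33 ± 0.19) and Nectin1, at least 6.07-fold higher (limma adjusted p = 0.00017; mean log2 of 10.89 in lactating glands), were among the higher ones. Nectin1 was tested only through its lactating arrays, as its pregnant and virgin arrays alone averaged under the filter on dim genes. Cdh11 was at least 5.78-fold lower, and the mesenchymal cadherin Cdh2 at least 1.60-fold lower (limma adjusted p = 0.00032 and 0.0056). Both were below background in lactating glands, with a mean log2 of 8.07 in lactating and 10.82 in virgin glands for Cdh11, and 7.55 in lactating and 8.96 in virgin glands for Cdh2. None of the genes in these 6 lists was called between mutants and controls.

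Markers of other cell types moved between the stages as well. The summed signal of 14 vascular mural cell markers, 13 of them above background on some array, was 15857 and 18154 in the virgin mutant and control, 12121 and 10799 in the pregnant mutant and control and 10234 and 8920 in the lactating mutant and its control. It was lowest in the lactating pair. In that list 1 gene was higher and 1 lower in pregnant than in virgin glands (7.14% each, against 6.45% and 8.26% of all genes). These were desmin, Des (1.92 ± 0.23), which skeletal muscle also makes, and Rgs5 (-1.13 ± 0.19). Lactating glands had 4 higher and 5 lower than virgin glands, with Notch3 at 1.31 ± 0.19 and Pdgfrb at -2.41 ± 0.26. These 28.6% and 35.7% of the list stand against 23.7% and 28.3% of all genes. Among the 4 higher were Ndufa4l2, by at least 1.55-fold, and Heyl, by at least 1.8-fold (limma adjusted p = 0.0034 and 0.0121). Both were below background in virgin glands. The pregnant and virgin arrays of Ndufa4l2 alone averaged under the filter on dim genes, so it was tested only through its lactating arrays. The sum of 12 endothelial markers was 12107 and 12821 in the virgin mutant and control, 7505 and 6837 in the pregnant mutant and control and 5740 and 6523 in the lactating mutant and its control. The sum of 11 fibroblast markers was 121328 and 128929 in the virgin mutant and control, 81101 and 70735 in the pregnant mutant and control and 19814 and 13438 in the lactating mutant and its control. Of these fibroblast genes, 11 of 11 were lower in lactating than in virgin glands (100%, against 28.3% of all genes).

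Skeletal muscle markers differed between the stages and within the virgin pair. Their 14 genes summed to 18825 and 54535 in the virgin mutant and control, 237460 and 206112 in the pregnant mutant and control and 108133 and 115822 in the lactating mutant and its control. Of these, 14 of 14 were higher in pregnant than in virgin glands (100%, against 6.45% of all genes), with a median of 2.95. Tpm1, Synpo2 and Des are made in skeletal muscle too, and the part of that tissue in their ratios was not tested. The 13 luminal epithelial markers summed to 59874 and 53334 in the virgin mutant and control, 58808 and 79351 in the pregnant mutant and control and 94673 and 64088 in the lactating mutant and its control. The 11 milk secretion markers summed to 166408 and 130437 in the virgin mutant and control, 275153 and 388588 in the pregnant mutant and control and 442799 and 411031 in the lactating mutant and its control. The 9 adipocyte markers summed to 158800 and 158280 in the virgin mutant and control, 106231 and 126372 in the pregnant mutant and control and 81625 and 90674 in the lactating mutant and its control. Macrophage sums lay between 15981 and 22792 on all arrays, but their 9 genes did not all stay level. In lactating against virgin glands 6 were called lower and 1 higher (66.7% and 11.1%, against 28.3% and 23.7% of all genes). Against pregnant glands 6 were lower and 2 higher (66.7% and 22.2%, against 16.8% and 14.9%). The sums of T and B cell markers were 11188 and 9344 in the virgin mutant and control and 1387 to 4084 elsewhere. Skin keratinocyte markers, 4 of 12 above background on some array, summed to 1020 to 2908. The part of cell composition in the stage ratios of the 8 genes was not tested.

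**Figure D5:**
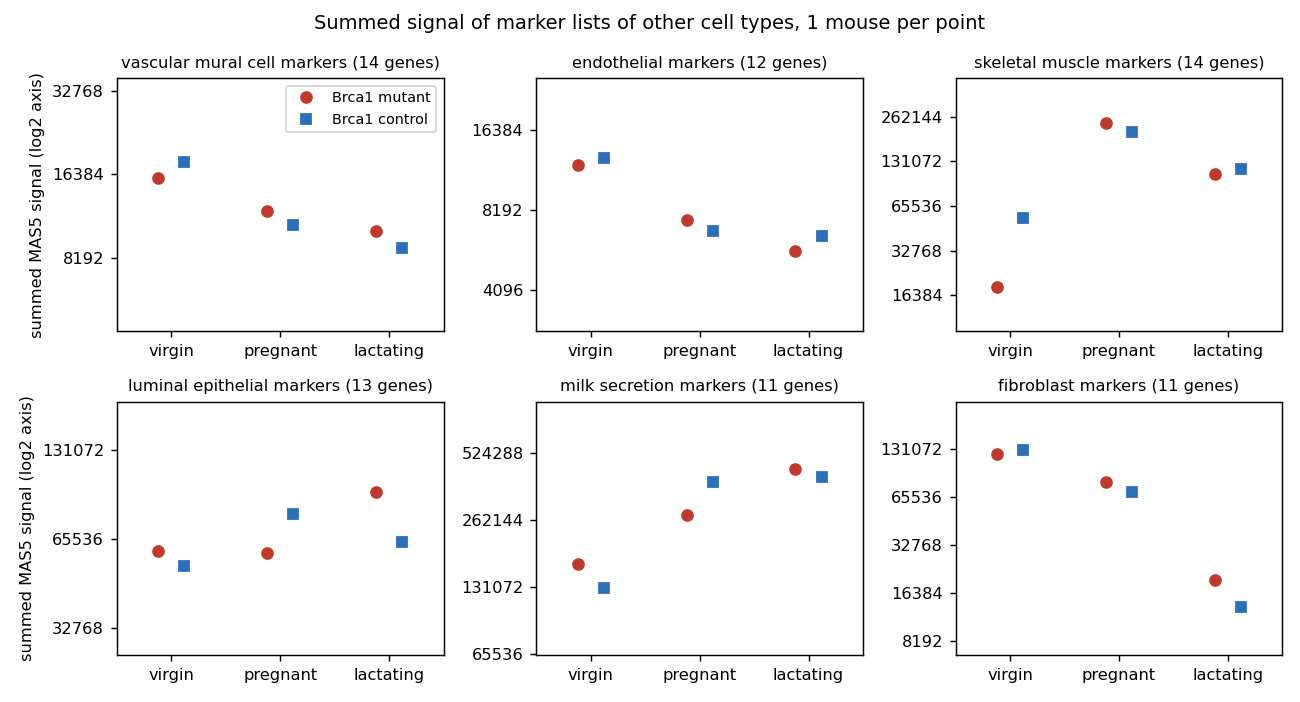
Summed MAS5 signal (vertical axis, log2 axis) of marker lists of 6 other cell types or functions, by stage, with 1 mouse per point, mutants left of controls. Mural, endothelial and fibroblast sums are highest in the virgin pair, milk secretion sums are lowest there, and the skeletal muscle sum runs from 18825 in the virgin mutant to 237460 in the pregnant mutant.

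Likeness to other genes was measured as the correlation of log2 values over the 6 arrays, among 7053 tested genes with a log2 range of at least 1. The profiles most like the mean of the 5 contractile genes were Cib1 (r = 0.992), Pla2g6 (0.986), Cited4 (0.980), Bzw2 (0.973) and Srprb (0.972). Cib1 read 2720.0 and 2114 in the virgin mutant and control, 5415 and 5529.9 in the pregnant mutant and control and 5189 and 3315 in the lactating mutant and its control. Most like Oxtr were Myd88 (r = 0.989), Abhd5 (0.986), Sntb2 (0.984), 1110008P14Rik (0.984) and H2aj (0.983). Olfml3 (r = 0.996) and St3gal6 (0.991) led the genes like Trp63, followed by 5031426D15Rik (0.986), Zfp729a (0.984) and B4galt5 (0.980). Olfml3 read 588 and 408 in the virgin mutant and control, 431 and 254 in the pregnant mutant and control and 173.5 and 209 in the lactating mutant and its control. Nearest to Cdh3 was Cracd (r = 0.998), then Fxyd4 (0.992), Ranbp17 (0.991), Lman1 (0.991) and Tmem160 (0.991), although Cdh3 itself was at background on 4 arrays. These are the highest of many values over 6 arrays that share 3 stages, and describe likeness only.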

How the data were processed

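Biotin-labelled total RNA was hybridised to a mouse array that reads the 3′ end of transcripts, per the labels. The authors deposited MAS5 signals, a linear-scale intensity for each probe set. MAS5 is named in the submitters' processing notes, with no version in the sources used here. The signals were turned into log2(signal + 52.1), 52.1 being the 25th percentile of all values, so ratios of dim genes are understated.

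The array holds 45101 probe sets, of which 64 are controls, 34945 have 1 gene symbol, 932 have several and 9160 are unnamed here. For each of 18193 genes the probe set of highest mean was used, and those ending in _x_at only for genes with nothing else. A gene was tested if its mean log2 value reached 7.715, the median over probe sets. This left 11495 genes, and the 8 described here are among them. RefSeq (GRCm38.p6) held 18032 of the genes, 0 symbols changed, and promoter windows are RefSeq's.

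Groups follow the sample labels. A single fit with limma 3.58.1 under R 4.3.3, its eBayes step following the variance trend, compared mutants with controls, with stage as a block, and compared the stages with each other, with genotype as covariate. It leaves 2 residual degrees of freedom beside a prior of 5.578. P-values were adjusted over all tested genes (Benjamini-Hochberg) and calls made at 0.05. No label says how the mice were related, so p-values measure the spread between these arrays only. With 1 mouse per genotype and stage, that spread is how far the mutant to control ratios of the pairs differ, joined to the prior. It is not the spread between mice of the same genotype and stage, and the number of arrays limits the precision. A gene at or under the 95th percentile of 20 Y-linked probe sets on both arrays of a stage was given as a bound, with no correction of the counts of calls for it. The code was tested on simulated data.

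Named genes are the 8, Krt5 and Krt14, up to 4 genes with the smallest p per list and comparison, and the 5 genes most like each pattern, with some left out for brevity. Srf is named outside this rule, with its values known. Kcnmb1, Kcnma1, Ndufa4l2 and Heyl are named for their dim signals without regard to it, with their values known. The genes, lists and tests were chosen with earlier results of these data known. Alternatives covered normalization, pseudocount, filter, averaging of probe sets, the variance trend, the block or covariate, the arrays fitted, and leaving out arrays or pairs. Passing over probe sets ending in _s_at was added after seeing the data, as was leaving arrays out of the keratin comparison. Figures were drawn with matplotlib 3.10.9 (Python 3.11.15).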

Additional observations from a re-analysis of the deposited data

How the results depend on the processing

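Of 500 recomputed ratios of the 8 genes, 433 kept their direction and side of the threshold, 36 lost and 11 gained a call, and 20 changed sign; the causes were not tested. Every reversed ratio was of a gene not called. Centring on array medians turned Acta2 (-0.02) and Oxtr (-0.34) in lactating over pregnant, Myh11 in lactating over virgin (-0.36) and Oxtr in mutant over control (-0.02). Averaging a gene's probe sets turned Acta2 (-0.13), Myh11 (-0.42) and Oxtr (-0.08) in mutant over control, Oxtr in lactating over pregnant (-0.06) and Trp63 in pregnant over virgin (0.17). Quantile normalization turned Mylk in lactating over pregnant (0.10). Leaving out pairs gave mutant over control ratios of -0.02 to 0.29 for Acta2, -0.17 to 0.20 for Oxtr and -0.04 to 0.46 for Tagln. For Cdh3 the computed values, -0.48 to 0.08, rest on 4 arrays at background and are not to be read as ratios. Leaving out arrays gave lactating over pregnant ratios of -1.23 to 0.12 for Cnn1, -0.36 to 0.11 for Mylk and -0.21 to 0.36 for Oxtr, and pregnant over virgin ratios of -0.21 to 0.56 for Tagln. Of the 8 genes, the number called in lactating against pregnant glands, 0 in limma, was 1 with quantile normalization, 3 with median centring, 1 with the pseudocount at the median, 1 with no variance trend and 0 to 2 with an array left out. In pregnant against virgin glands, where 4 were called, it was 1 with median centring, 2 with no variance trend and 0 to 4 with an array left out, and in lactating against virgin glands, where 6 were called, 2 to 6. Mutant against control gave 0 of the 8 under all 13 alternatives run. With probe sets ending in _s_at passed over, Acta2 fell under the filter and was not tested.

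Over all genes, 1690 were called in pregnant against virgin glands, 3641 in lactating against pregnant and 5982 in lactating against virgin, and these ran from 304 to 2764, 1029 to 4598 and 3408 to 7730 over the alternatives; mutant against control ran from 0 to 2. Calls in the contractile list ran from 2 to 12 (8), 2 to 14 (9) and 8 to 17 (12) in the 3 stage comparisons, in the phosphorylation list from 0 to 4 (2), 0 to 7 (4) and 5 to 13 (12), in the transcription factor list from 0 to 2 (1), 0 to 3 (2) and 0 to 6 (3), in the oxytocin list from 1 to 8 (6), 4 to 9 (8) and 9 to 17 (14), in the basal list from 0 to 15 (8), 4 to 13 (10) and 13 to 21 (18), and in the cadherin list from 0 to 5 (2), 4 to 6 (5) and 4 to 9 (8), with the reported count in brackets. With 1 mouse per stage and genotype, and Cdh3 and all but 1 Trp63 probe set at or near background, dim members limit what these arrays can show.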
